A study of Mus musculus with 17 samples.

Results

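The early growth response factors Egr1, Egr2, Egr3 and Egr4 and the corepressors Nab1 and Nab2 were followed across all arrays of a study of PDGF and kinase inhibitors in NIH 3T3 cells. The members are the 6 genes of this regulatory circuit, taken by name, and every probe set whose annotation lists exactly 1 of them. These genes were chosen with earlier results of these data known. They are 6 of 12637 genes named on the arrays and carry 13 probe sets. Of these, 8 lie in a table of 8 arrays (1 each for Egr1, Egr3, Egr4 and Nab2, and 2 each for Egr2 and Nab1). The other 5 lie in a table of 9 arrays of an older design (2 for Egr1 and 1 each for Egr2, Nab1 and Nab2). Egr3 and Egr4 were not analysed in the 9-array table, since no probe set there was annotated to them.

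EGR proteins are transcription factors with C2H2 zinc fingers that bind GC-rich DNA. Growth factors switch their genes on within minutes, largely through ERK, which phosphorylates ternary complex factors bound beside serum response factor (SRF) at CArG boxes. NAB1 and NAB2 have no DNA-binding domain of their own and repress by docking onto EGR1, EGR2 and EGR3, which carry an inhibitory domain that EGR4 lacks. Nab2 is itself known as a growth factor-induced gene and closes a negative feedback loop, while Nab1 is described as expressed more evenly. In the animal, Egr2 is needed for myelination by Schwann cells, Egr3 for muscle spindles and Egr4 for male fertility in the mouse.

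NIH 3T3 cells are an established line of fibroblasts from mouse embryos. Cells described as quiescent were left without PDGF, a fibroblast mitogen, or given it at 25 ng/ml, and the RNA of each condition was read on 1 array, so a single condition has no replicate within an experiment. The Src experiment fills the 8-array table. Its arrays are vehicle, SU6656 (2 µM, an inhibitor of Src family kinases), UO126 (10 µM, an inhibitor of MEK, which activates ERK) and LY294002 (7.5 µM, an inhibitor of PI3K), each without PDGF and with PDGF for 1 h. The MEK experiment in the 9-array table holds untreated cells, UO126 (10 µM) and PD98059 (7.5 µM, another MEK inhibitor), each without and with PDGF; the labels give no duration for it. A repeat of the Src experiment in that table holds vehicle, PDGF for 1 h, and PDGF for 1 h with SU6656 (2 µM). The controls were labelled untreated in the MEK experiment and vehicle-treated in the others. Whether arrays came from separate cultures is not stated, so a p-value here reflects spread among arrays, and that spread may in part be technical. It also holds differences between inhibitors or experiments that have no term of their own in a fit.

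Signals are linear array intensities, scaled by the authors to a common trimmed mean of 500.2 to 500.4 on every array. Array medians lay between 174.7 and 198.4 signal units for the Src experiment and between 133.7 and 156.15 on the older design. All 10 fibroblast markers had a kept probe set in each table, with mean signals of 348.4 to 38917.7 for the Src experiment and of 53 to 26557.1 on the older design. The lowest of the latter was Vim, just above the filter limit of 44.7 and the 1 marker below its table's median. Of 6 macrophage and leukocyte, 5 epithelial and 4 endothelial markers, 3, 3 and 2 were kept in the 8-array table, with mean signals of at most 371.8, and 2, 3 and 1 in the 9-array table, with at most 343.2. Of 6 Schwann cell and neuron markers, 2 were kept in the 8-array table, with mean signals of at most 126, and 3 in the 9-array table, where Tubb3 had 2853 and the other two at most 87.8. Of the other cell types' markers, Cldn3 rose with PDGF in the 8-array table (log2 1.42, SE 0.272), and among the fibroblast markers Pdgfra fell by 0.65 in the 9-array table (SE 0.117). RNA quality, read as Gapdh signal at the 3′ end over that at the 5′ end, was 0.739 to 0.907 on 16 arrays and 1.13 for MEK untreated. Its part in the ratios taken over that array was not tested.

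Upstream sequence was at hand for 4 of the 6 members in a RefSeq table of build GRCm38.p6, and the 250 bases before a start site are shown because Egr2 had the largest PDGF response, Nab2 a smaller one, and Nab1 and Egr4 little or none that passed the test. Egr2 has 5 listed starts. The window printed, chr10:67537619-67537868 on the plus strand, holds the same CArG box and CRE half-sites as those of 2 overlapping starts, while 1 start had another CArG box with ETS sites and 1 had no match. The Egr4 window is chr6:85513590-85513839, the Nab1 window chr1:52500449-52500698 and the Nab2 window chr10:127666704-127666953, all on the minus strand and written 5′ to 3′ of the gene. Capitals mark matches, on either strand, to the EGR site GCGNGGGCG, the CRE half-site TGACG, the ETS site CCGGAA and the CArG box (CC and GG around a run of A or T). Matches in the windows printed do not overlap each other.
Egr2: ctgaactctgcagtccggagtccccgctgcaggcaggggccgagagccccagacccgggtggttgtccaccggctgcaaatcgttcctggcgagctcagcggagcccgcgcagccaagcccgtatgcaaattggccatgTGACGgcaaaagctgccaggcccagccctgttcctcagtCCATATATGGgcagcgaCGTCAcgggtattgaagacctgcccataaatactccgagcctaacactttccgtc
Egr4: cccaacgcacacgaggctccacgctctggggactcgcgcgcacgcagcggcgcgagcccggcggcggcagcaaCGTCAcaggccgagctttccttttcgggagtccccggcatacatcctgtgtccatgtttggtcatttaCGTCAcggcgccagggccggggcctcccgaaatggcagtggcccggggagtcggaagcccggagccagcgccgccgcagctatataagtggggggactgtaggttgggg
Nab1: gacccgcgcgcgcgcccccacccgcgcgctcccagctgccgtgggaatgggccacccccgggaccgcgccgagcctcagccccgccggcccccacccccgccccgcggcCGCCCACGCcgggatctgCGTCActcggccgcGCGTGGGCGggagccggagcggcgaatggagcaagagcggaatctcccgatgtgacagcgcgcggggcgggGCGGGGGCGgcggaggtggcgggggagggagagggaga
Nab2: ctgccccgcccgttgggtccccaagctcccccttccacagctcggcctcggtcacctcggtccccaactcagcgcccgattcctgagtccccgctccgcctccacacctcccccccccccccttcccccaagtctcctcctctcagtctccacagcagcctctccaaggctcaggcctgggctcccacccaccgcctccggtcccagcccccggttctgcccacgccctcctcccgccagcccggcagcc

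The Egr2 window held a CArG box 72 to 63 bases before the start, in a stretch flanked by CRE half-sites at 111 to 107 and 55 to 51 bases. A CArG box was present in 1.47% of 32851 listed promoter windows of the same length, and a CRE half-site in 17.8%. Nab1 held 3 EGR sites, at 141 to 133, 109 to 101 and 38 to 30 bases before its start, and 1 CRE half-site, against 4.7% of windows with any EGR site. Egr4 held CRE half-sites at 177 to 173 and 109 to 105 bases. In the Nab2 window none of the 4 motifs matched. None of the windows printed held the ETS site, found in 12% of all windows. Matches are letters in a window and not binding measurements.

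**Figure D1:**
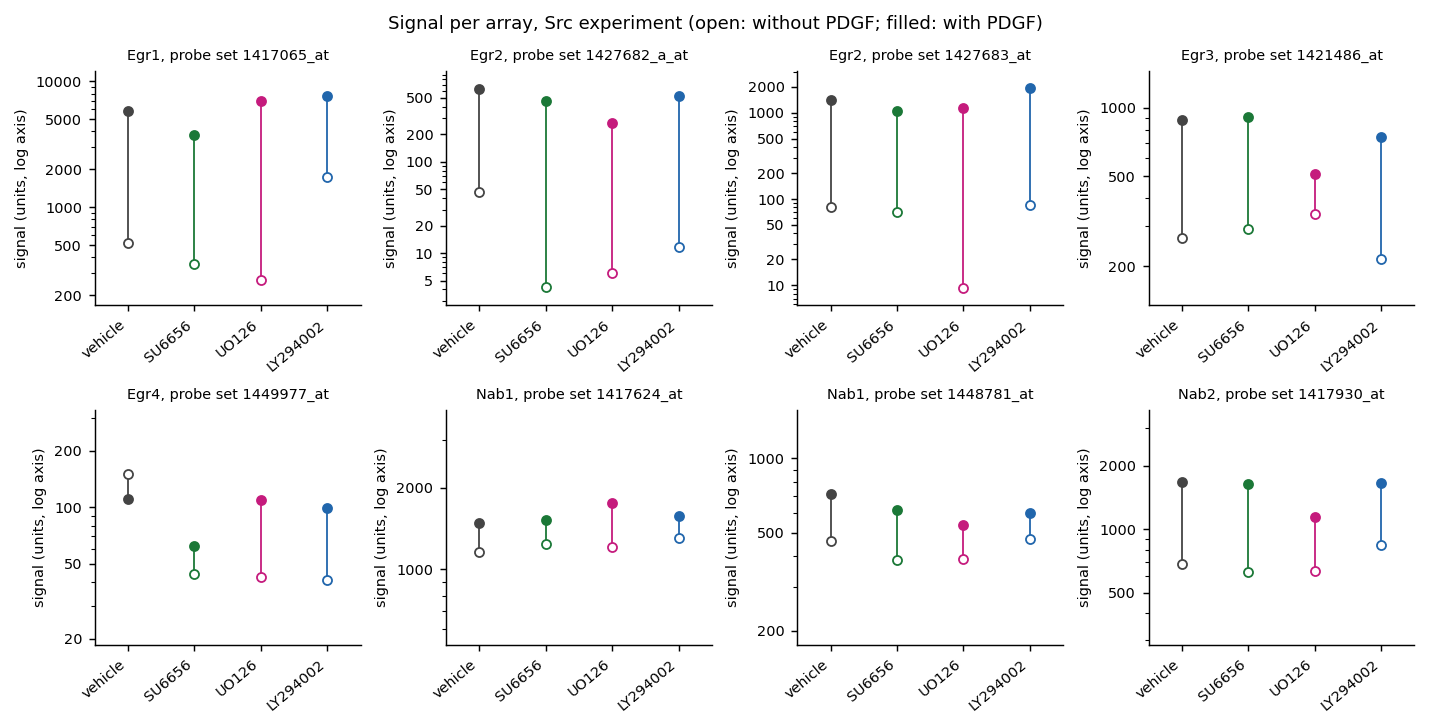
Deposited signal (units, log axis) of the 8 member probe sets on the 8 arrays of the Src experiment, with open points for arrays without PDGF, filled points for arrays with PDGF and a line joining each pair. Every filled point lies above every open point of its panel except for Egr4, where the vehicle array (150) is the highest.

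PDGF raised Egr1, Egr2, Egr3 and Nab2, and at their kept probe sets the signal with PDGF was higher than without it in every pair of arrays, whichever inhibitor was present. Mean responses over basal were 9.73-fold for Egr1 (log2 3.28 ± 0.12, SD, n = 3 experiments) and 16.6-fold for Egr2 (log2 4.05 ± 0.38, n = 3). They were 2.74-fold for Nab2 (log2 1.45 ± 0.51, n = 3) and 1.37-fold for Nab1 (log2 0.46 ± 0.22, n = 3). Egr3 had 3.17-fold in the 1 experiment that measured it. These values are ratios of log2 signal plus a pseudocount (36.3 and 21.2 signal units in the respective tables) after quantile normalisation, so the change of dim probe sets is understated.

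Over the 4 pairs of the 8-array table, 7 of 8 member probe sets rose and 0 fell, against 2.51% and 0.808% of all 15838 probe sets tested (limma, Benjamini-Hochberg adjusted p under 0.05, pair as a block). The median log2 effect was 1.22 over the 8 and −0.03 over all. On the older design 3 of 4 kept member probe sets rose and 0 fell, against 1.46% and 0.265% of 8695, with a median of 2.21 beside −0.03. The filter that left out the dimmest 30% of probe sets by mean kept all 8 and 4 of 5. However, the Egr2 probe sets and Egr4 passed it in the 8-array table only through their PDGF arrays, with means without PDGF (16.8, 60.3 and 66.7 signal units) below its limit of 73.8, so the counts and medians that include them are not read as support. Of the 5 probe sets whose mean without PDGF also passed, 5 rose, but the calls of the Nab1 probe sets among them were lost under many alternatives, as given below. The share of all probe sets that rose under this stricter rule was not computed, so the 5 of 5 cannot be weighed against it. The deposited signals of the arrays with PDGF all lay above those of the arrays without in 7 of 8 member probe sets, against 2.97% of the 15838 kept probe sets. That count includes the Egr2 probe sets and is not read as support either. In the 9-array table this held for 3 of 4 kept member probe sets, against 1.54% of the 8695 kept. The member probe set left out by the filter there overlapped.

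Egr1, the best known of the family, was read by probe set 1417065_at in the Src experiment. Without PDGF its signal was 522.7 with vehicle, 355.0 with SU6656, 266.5 with UO126 and 1738.4 with LY294002. With PDGF it was 5825.5, 3776.7, 6927.9 and 7604.7 in the same order. The groups did not overlap, and the LY294002 array stood highest in both. The fitted PDGF effect was 3.31 on the log2 scale (SE 0.288, limma adjusted p = 0.000165), with 3.40, 3.27, 4.51 and 2.07 in the vehicle, SU6656, UO126 and LY294002 pairs.

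In the MEK experiment Egr1 probe set 98579_at read 274.0 in untreated cells, 156.9 with UO126 and 216.0 with PD98059, and 2712.9, 1853.0 and 2205.5 when PDGF was added. In the repeat it read 290.0 with vehicle, 2754.1 with PDGF and 1796.4 with PDGF and SU6656. All 5 arrays with PDGF lay at or above 1796.4, and all 4 without lay at or below 290.0. The pair effects were close to each other, 3.17 to 3.34, and the fitted effect was 3.25 (SE 0.114, limma adjusted p = 3.42e-07). Both Egr1 and Egr2 had the smallest p-values of all probe sets in that table, ranks 1 and 2. The second Egr1 probe set, 161802_i_at, was dim, at 16.6 to 60.5 signal units on all 9 arrays, and was left out by the filter. It showed no rise when the filter was lifted (log2 −0.15, SE 0.22, limma adjusted p = 0.862), so the probe sets of Egr1 disagreed on that design, and the mean of both would give a response of 2.18 over the 3 experiments in place of 3.28.

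Egr2, also called Krox20, was close to the lower end of the scale without PDGF. Probe set 1427683_at read 81.5 with vehicle, 70.3 with SU6656, 9.4 with UO126 and 86.2 with LY294002. With PDGF the signals were 1421.6, 1038.1, 1140.4 and 1919.3. Probe set 1427682_a_at read 46.8, 4.3, 6.0 and 11.7 without PDGF and 621.3, 460.8, 266.7 and 530.3 with it, in the order vehicle, SU6656, UO126, LY294002. Both probe sets separated the groups fully, with fitted effects of 3.94 (SE 0.2) and 3.28 (SE 0.212). Since they entered the fit only through their PDGF arrays, these are given as a description and their tests are not read as support. In the 9-array table, where the mean without PDGF also passed the filter, probe set 102661_at read 159.4, 153.2 and 109.0 in untreated, UO126 and PD98059 cells and 3308.8, 2160.8 and 2375.4 with PDGF. In the repeat the vehicle, PDGF, and PDGF with SU6656 arrays read 61.1, 1658.5 and 1109.1. The groups again did not overlap, and the fitted effect was 4.06 (SE 0.151, limma adjusted p = 3.42e-07).

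Egr3 was read by 1 probe set, 1421486_at, in the Src experiment. Its signal was 265.6, 291.1, 338.5 and 215.5 without PDGF and 886.2, 911.5, 509.0 and 741.4 with PDGF, for vehicle, SU6656, UO126 and LY294002. The groups did not overlap, and the UO126 array was the highest without PDGF and the lowest with it. The fitted effect was 1.36 (SE 0.176, limma adjusted p = 0.00212), and the call was lost without a variance trend (adjusted p = 0.0574).

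Egr4, the member without the NAB docking domain, was dim. Probe set 1449977_at read 150.0, 44.1, 42.4 and 40.9 without PDGF and 110.7, 62.0, 109.7 and 99.7 with it, in the same order of conditions. The vehicle array was the highest of all 8, and the groups overlapped. Its PDGF effect was −0.27 in the vehicle pair and 0.37, 1.14 and 0.79 in the SU6656, UO126 and LY294002 pairs, and did not pass the test (log2 0.51, SE 0.297, limma adjusted p = 0.447).

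Nab2, the inducible corepressor, read 684.7, 627.4, 637.1 and 838.6 without PDGF and 1667.1, 1645.4, 1141.1 and 1651.8 with PDGF in the Src experiment (probe set 1417930_at). The groups did not overlap, and the UO126 array was the lowest of those with PDGF. The fitted effect was 1.08 (SE 0.106, limma adjusted p = 0.000369). In the MEK experiment probe set 100962_at read 1310.2, 1635.9 and 1343.0 for untreated, UO126 and PD98059, and 2754.4, 2360.8 and 2923.8 with PDGF. In the repeat it read 920.0 with vehicle, 3709.3 with PDGF and 3258.2 with PDGF and SU6656. The response of the repeat, 4.09-fold, was larger than that of the MEK experiment, 2.11-fold, or of the Src experiment, 2.38-fold. The fitted effect was 1.17 (SE 0.198, limma adjusted p = 0.0127). That call was lost without the filter on dim probe sets (adjusted p = 0.0549) and without a variance trend (0.176).

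Nab1, the other corepressor, moved little. Probe set 1417624_at read 1160.2, 1244.0, 1206.5 and 1305.2 without PDGF and 1480.9, 1520.4, 1765.7 and 1576.4 with it. Probe set 1448781_at read 462.3, 386.8, 391.8 and 470.6, and 713.4, 617.5, 536.3 and 601.5. In neither did the groups overlap, and both passed the test in the 8-array table, with effects of 0.34 (SE 0.0766, limma adjusted p = 0.0483) and 0.53 (SE 0.104, adjusted p = 0.0244). Both calls were lost without any 1 of the 8 arrays (0.28 to 0.36 and 0.48 to 0.59), without the filter, without the trend and without the pair as a block (adjusted p = 0.116 and 0.0542). In the 9-array table probe set 94408_at read 1678.5, 2195.4 and 1538.8 for untreated, UO126 and PD98059, and 2795.9, 2155.2 and 2127.9 with PDGF. The vehicle, PDGF, and PDGF with SU6656 arrays of the repeat read 1347.6, 1667.2 and 1554.7. The groups overlapped, and the effect of 0.36 did not pass (SE 0.126, limma adjusted p = 0.26).

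**Figure D2:**
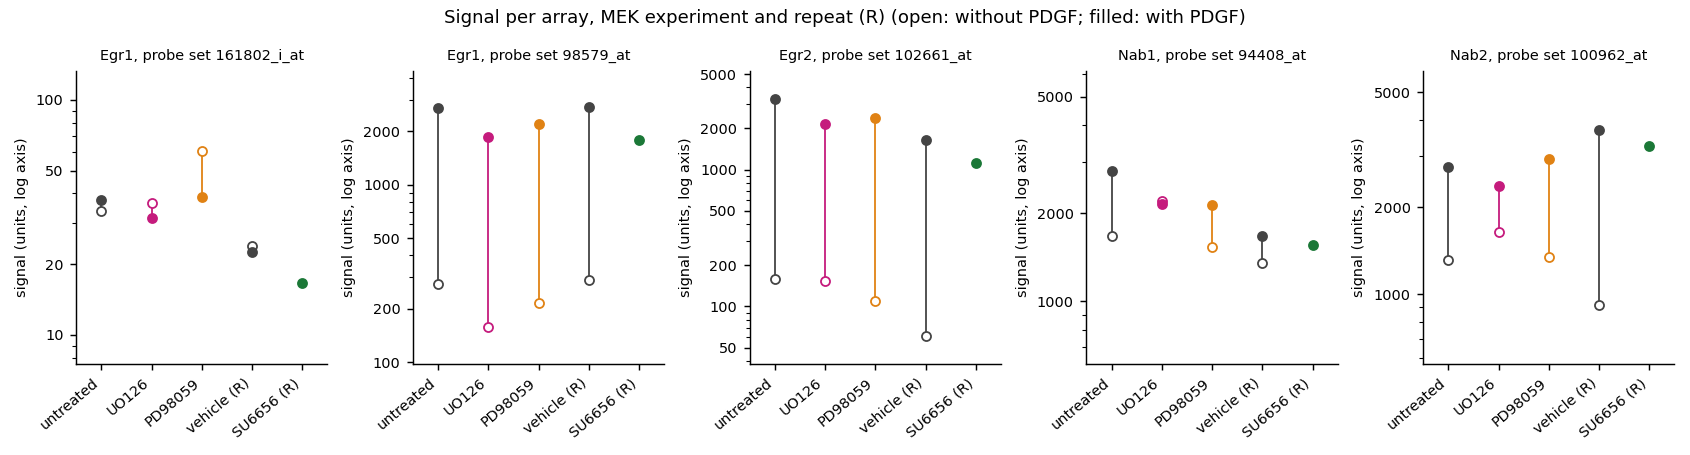
Deposited signal (units, log axis) of the 5 member probe sets on the 9 arrays of the MEK experiment and the repeat (R), with open points without and filled points with PDGF; SU6656 has no array without PDGF. Egr1 98579_at, Egr2 and Nab2 have every filled point above every open point, while Nab1 overlaps and the second Egr1 probe set stays between 16.6 and 60.5.

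**Figure D3:**
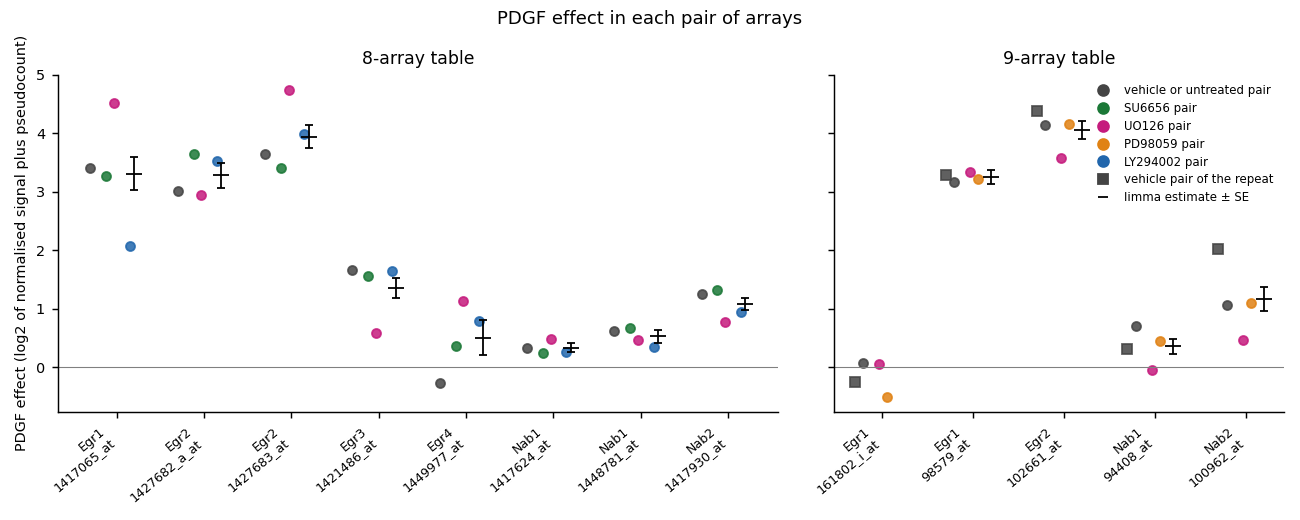
PDGF effect (log2 scale) of each member probe set in each of the 4 pairs of arrays per table, coloured by the inhibitor of the pair, with the limma estimate and its SE in black. Egr1 ranges from 2.07 to 4.51 in the 8-array table but from 3.17 to 3.34 in the 9-array table, and the UO126 pair of Egr3 (0.59) lies apart from the other 3 (1.56 to 1.66).

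The inhibitor arrays addressed which part of the PDGF response depends on Src family kinases, MEK or PI3K. Under PDGF, changes with any inhibitor were small beside the PDGF response of Egr1 and Egr2. Each was 1 array over 1 array, and all inhibitors of an experiment were set against the same PDGF array. At the brightest probe sets 0 of the 6 genes were 2-fold down in the Src experiment with SU6656, UO126 or LY294002, against 1.51%, 1.81% and 1.79% of all probe sets. The dimmer Egr2 probe set, 1427682_a_at, was the exception with UO126, at 0.475-fold (log2 −1.07). At such shares a count of 0 among 6 genes does not set the members apart. The inhibitor and interaction fits given below found only part of simulated 2-fold changes. A count of 0 members called in them is therefore not evidence of no effect. In the vehicle pair Egr3 and Nab2 rose by log2 1.66 and 1.25, less than Egr1 and Egr2. Under PDGF they changed by −0.74 and −0.53 with UO126, 0.03 and −0.02 with SU6656, and −0.25 and −0.02 with LY294002.

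SU6656 was the inhibitor repeated under PDGF on the older design. Egr1 with PDGF and SU6656 had 0.635-fold the level with PDGF alone in the Src experiment and 0.638-fold in the repeat (log2 −0.65 in each). At or below these values lay 3.97% and 7.34% of all probe sets in the respective comparisons. For Egr2 the values were 0.737- and 0.76-fold at its probe sets in the Src experiment and 0.659-fold in the repeat. Egr3 had 1.02-fold, the dim Egr4 0.665-fold, and Nab2 0.984- and 0.882-fold. For Nab1 the probe sets of the Src experiment lay on either side of 1, with 1.02-fold at 1417624_at and 0.884-fold at 1448781_at, and the repeat gave 0.914-fold. Over the arrays without and with PDGF in the 8-array table, limma called 0 of 8 member probe sets for SU6656, with 1 at an unadjusted p under 0.05, against 0.107% of all probe sets called. The 1 was the dimmer Egr2 probe set, 1427682_a_at (log2 −0.72, SE 0.3, adjusted p = 0.59), while 8.01% of all probe sets had an unadjusted p under 0.05. That probe set passed the filter only through its PDGF arrays. Its signals without PDGF, 4.3 with SU6656 and 46.8 with vehicle, lie near or below the pseudocount, so −0.72 is not read as an inhibitor effect. The number of all probe sets called for SU6656, 17, was 0 without the vehicle array, 2 without the PDGF array and 7 without the SU6656 array. The response to PDGF in the SU6656 pair against the other 3 pairs was called for 0 of 8 member probe sets and 0% of all, with 0 and 875 at an unadjusted p under 0.05 (limma). For SU6656 over vehicle Egr1 had −0.59 (SE 0.408, 95% confidence interval −1.50 to 0.33, adjusted p = 0.767).

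With UO126 the ratios under PDGF ran from lower to higher among the members. In the Src experiment Egr2 had 0.475-fold of the PDGF array at its dimmer and 0.801-fold at its brighter probe set. Egr3 had 0.601-fold, Nab2 0.691-fold and Egr1 1.15-fold. The probe sets of Nab1 disagreed in direction, with 1.17-fold at 1417624_at and 0.776-fold at 1448781_at. In the MEK experiment the same comparison gave 0.678-fold for Egr1, 0.655-fold for Egr2, 0.842-fold for Nab2 and 0.759-fold for Nab1. With PD98059 the values were 0.806, 0.73, 1.04 and 0.758-fold. Over the arrays without and with PDGF of the Src experiment, limma called 0 of 8 member probe sets for UO126, with 2 at an unadjusted p under 0.05, against 0.0442% of all probe sets called (7, and 0 without the vehicle or the PDGF array, 2 without the UO126 array). Both were those of Egr2, with −0.87 (SE 0.283, adjusted p = 0.421) at 1427683_at and −1.04 (SE 0.3, adjusted p = 0.37) at 1427682_a_at. Of all probe sets, 9.09% had an unadjusted p under 0.05 in this fit. Both Egr2 probe sets passed the filter only through their PDGF arrays. The fit also averages in their signals without PDGF, 9.4 and 6.0 with UO126, which lie below the pseudocount. The 2 estimates are therefore not read as an inhibitor effect. Taking UO126 and PD98059 as 2 replicates of MEK inhibition under PDGF, limma called 0 of 4 members and 0 of 8695 probe sets, while 1 member and 629 probe sets had an unadjusted p under 0.05. The member was Egr2 (log2 −0.59, SE 0.223, 95% confidence interval −1.09 to −0.10, limma adjusted p = 0.592). Egr1 had −0.46 (SE 0.212, interval −0.93 to 0.01), Nab2 −0.34 (interval −0.90 to 0.22) and Nab1 −0.30 (interval −0.77 to 0.17). Since the fit also takes its PDGF effect from the repeat, these estimates are not means of the changes within the MEK experiment. Those changes were −0.25 with UO126 and 0.05 with PD98059 for Nab2, and −0.40 with either for Nab1.

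Without PDGF, UO126 left Egr1 at 0.537-fold of vehicle in the Src experiment and 0.603-fold of untreated in the MEK experiment, and PD98059 at 0.784-fold. Of all probe sets, 2.41%, 4.76% and 16.3% lay as low or lower in those comparisons. Egr2 read 9.4 against 81.5 signal units at its brighter and 6.0 against 46.8 at its dimmer probe set in the Src experiment. These signals lie near or below the pseudocount and the filter limit, so no fold is drawn from them or set beside the 0.968- and 0.723-fold with UO126 and PD98059 in the MEK experiment. For MEK inhibition without PDGF limma called 0 of 4 members, against 0.0115% of all probe sets. At an unadjusted p under 0.05 were 1 member and 7.25% of all probe sets. The member was Egr1 (log2 −0.51, SE 0.212, interval −0.98 to −0.04, adjusted p = 0.647). This fit, too, took in the arrays of the repeat.

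The PDGF response of Egr1 within the UO126 pair was 22.7-fold in the Src experiment and 10.1-fold in the MEK experiment, against 10.6- and 9-fold without inhibitor. The 8-array UO126 pair differed from the other 3 pairs by 1.59 on the log2 scale for Egr1 (SE 0.437), by 1.06 for Egr2 probe set 1427683_at (SE 0.312) and by −1.03 for Egr3 (SE 0.233). In that order, they had the unadjusted limma p-values 0.00594, 0.00842 and 0.00196, and adjusted p = 0.5, 0.519 and 0.437, so 0 of 8 member probe sets passed, against 0.0189% of all. An unadjusted p under 0.05 was found for 7.72% of all probe sets in this fit. The other Egr2 probe set, 1427682_a_at, differed in the opposite direction (log2 −0.45, SE 0.482, adjusted p = 0.866), so no direction is given for Egr2. Without PDGF the UO126 array was low for Egr1 (266.5) and for both Egr2 probe sets (9.4 and 6.0), and the part of this in the differences was not tested. Nab2 responded 1.72-fold and 1.39-fold in the UO126 pairs of the Src and MEK experiments, against 2.38- and 2.11-fold without inhibitor, and 2.14-fold with PD98059. The interaction of PDGF with MEK inhibition in the 9-array table was −0.77 for Nab2 (SE 0.319, interval −1.48 to −0.06, limma adjusted p = 0.999) and 0.05 for Egr1 (SE 0.268, interval −0.54 to 0.65). The fit takes the response without inhibitor from the MEK experiment and the repeat together, and the repeat holds no MEK inhibitor array. On the log2 scale Nab2 responded by 2.03 in the repeat. Within the MEK experiment it responded by 1.07 untreated, 0.47 with UO126 and 1.10 with PD98059. The −0.77 is thus not a difference within 1 experiment. The interaction was called for 0 of 4 members and 0 of 8695 probe sets, with 1 and 423 at an unadjusted p under 0.05.

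The MEK inhibitors were compared at 10 µM UO126 and 7.5 µM PD98059, so the doses differ. Over arrays without and with PDGF, UO126 minus PD98059 was −0.31 for Egr1 (95% confidence interval −0.70 to 0.07), 0.13 for Egr2 (−0.32 to 0.59), 0.25 for Nab1 (−0.14 to 0.65) and 0.01 for Nab2 (−0.50 to 0.53). Limma called 0 of 4 members and 0 of 8695 probe sets, with 0 and 460 at an unadjusted p under 0.05.

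LY294002 alone left Egr1 at 1738.4 signal units against 522.7 with vehicle, 3.24-fold after normalisation. On that array 0.164% of all probe sets lay as high or higher, and 1.33% were at least 2-fold up. No other member was 2-fold up on that array, with 0.853-fold for Egr3, 1.12- and 1.03-fold for the probe sets of Nab1 and 1.22-fold for Nab2. Egr2 read 86.2 against 81.5 signal units at its brighter and 11.7 against 46.8 at its dimmer probe set, and no fold is drawn from these. With PDGF the LY294002 array of Egr1 had 1.29-fold the PDGF array, so the PDGF response within the LY294002 pair was 4.21-fold against 10.6-fold with vehicle. The difference of that pair from the other 3 was −1.65 on the log2 scale (SE 0.419, limma unadjusted p = 0.00394, adjusted p = 0.999). LY294002 over vehicle, taken over both arrays, gave 1.03 for Egr1 (SE 0.408, interval 0.11 to 1.95, adjusted p = 0.317). Limma called 0 of 8 member probe sets in either fit. For the LY294002 effect and the pair difference in turn, 1 member probe set each had an unadjusted p under 0.05, against 13.3% and 4.55% of all probe sets. The shares of all probe sets called were 0.511% and 0%. The first share, 81 probe sets, rested on single arrays: 4 were called without the PDGF array, 6 without PDGF with LY294002, 8 without vehicle and 10 without LY294002. The Egr2 response in that pair was 15.8- and 11.5-fold at its probe sets, Egr3 3.12-fold and Nab2 1.93-fold, and the array's Gapdh 3′ to 5′ ratio was 0.771.

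Egr4 was lower on all 3 inhibitor arrays without PDGF than on the vehicle array, at 0.428-fold with SU6656, 0.393-fold with UO126 and 0.438-fold with LY294002. At least 2-fold down in the same comparisons were 1.82%, 1.88% and 1.6% of all probe sets. The signals on the inhibitor arrays (40.9 to 44.1) lie near the pseudocount, so these folds are imprecise. All 3 ratios share the vehicle array, whose 150.0 is the value that stands apart, and none of the fitted inhibitor effects of Egr4 passed (−0.91, −0.64 and −0.66, limma adjusted p = 0.636, 0.702 and 0.558).

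**Figure D4:**
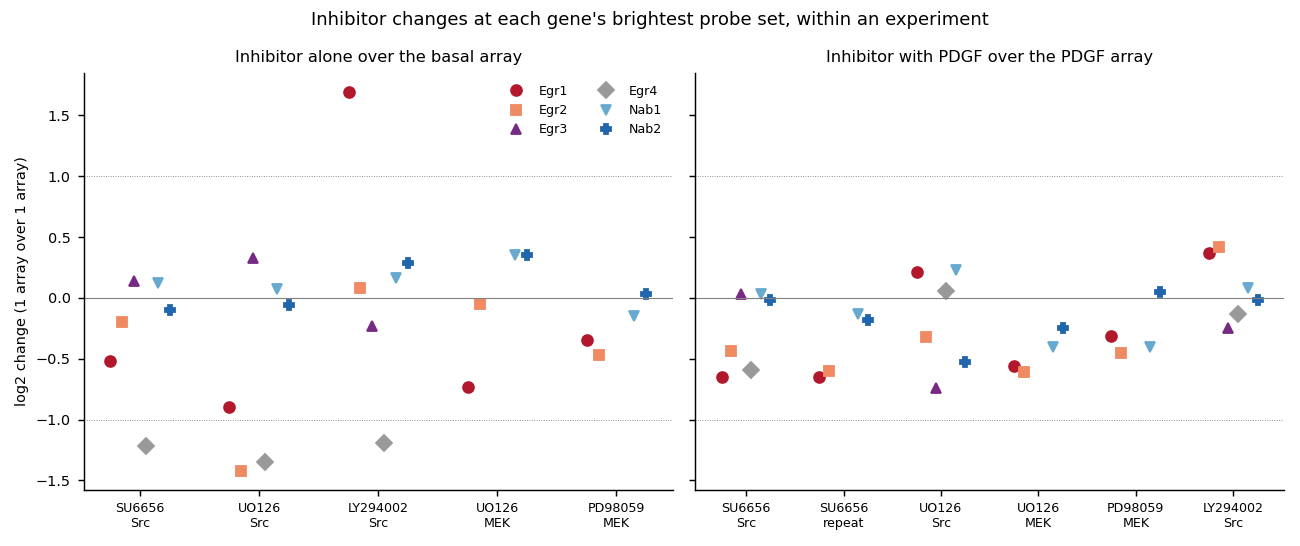
Log2 change with each inhibitor at the brightest probe set of each gene, without PDGF over the basal array (left) and with PDGF over the PDGF array (right), by inhibitor and experiment; each point is 1 array over 1 array and dotted lines mark 2-fold. Egr1 with LY294002 alone (1.69) is the only point above the upper line, and with PDGF no point passes either line. Below the lower line, without PDGF in the Src experiment, lie Egr4 with SU6656 (−1.22), UO126 (−1.35) and LY294002 (−1.19), and Egr2 with UO126. These come from signals near or below the pseudocount, and the Egr2 point is not read as a fold.

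Genes whose pattern over the arrays was closest to a member are given as a description. Candidates were non-members with a range of at least 1 on the log2 scale (2017 and 1626 genes). Arrays with and without PDGF make up most of the pattern of members where these groups did not overlap. They overlapped for Egr4 and for Nab1 over 9 arrays. Egr1 was closest to Ier2, an early response gene (Pearson r = 0.989), Gadd45b (0.987) and Ccn1 (0.984) over 8 arrays, and to Noct (0.991), Socs1 (0.989) and Ier2 (0.988) over 9. Egr2 was closest to Errfi1, Dusp6 and Vasn over 8 arrays (0.982 each) and to Btg2 (0.996), Zfp36l2 (0.994) and Socs1 (0.99) over 9. Dusp6 encodes a phosphatase of ERK, and Socs1 an inhibitor of cytokine signalling. Egr3 went with Stk40, a kinase gene, and the AP-1 gene Fosb (0.984 each) and with Mapk6 (0.962). Nab2 went with the EGF family ligand Ereg (0.989), Arc (0.988), a gene of synaptic plasticity, and Sgk1 (0.981) over 8 arrays, and with Hmox1 (0.981), heme oxygenase, Hes1 and Mafk (0.963 each) over 9. Nab1 went with Ankrd1 (0.965), Ier3 (0.962) and Itprid2 (0.95) over 8 arrays and with Jund (0.928), Atad3a (0.918) and Insl3 (0.916) over 9. The dim Egr4 went with Sst (0.887), Kcnh7 (0.88) and Epm2aip1 (0.877). These are the highest values among 2017 genes over 8 arrays, for a probe set near the filter limit, and are not read as likeness.

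Other genes of the circuit were counted at their brightest kept probe set in the PDGF fits, where 2.51% of 9218 genes rose and 0.824% fell for the Src experiment, and 1.67% of 6366 rose and 0.267% fell on the older design. Of genes described elsewhere as EGR targets, 8 of 22 rose and none fell in the Src experiment (median log2 0.26, −0.05 over all genes). On the older design 7 of 21 rose and none fell (median 0.16, −0.04 over all). The largest rises were those of Arc (3.28, SE 0.278), tissue factor F3 (1.93, SE 0.145), thrombospondin Thbs1 (1.90, SE 0.0938) and Ier2 (1.55, SE 0.117). In the 9-array table they were Ier2 (2.15, SE 0.136), F3 (1.49, SE 0.194), Vegfa (1.42, SE 0.16) and the stress sensor Gadd45b (1.34, SE 0.129). This list was chosen with earlier results of these data known, so its counts are not read as support. Whether EGR proteins act on these genes here was not measured.

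Among SRF, its ternary complex factor partners and CREB family members, 1 of 8 rose in the 8-array table, Srf itself (0.84, SE 0.12, limma adjusted p = 0.00403), and 0 of 6 in the 9-array table, with 1 at an unadjusted p under 0.05. Limma called 0 of 6 and 0 of 5 ERK cascade kinases, with 1 at an unadjusted p under 0.05 in each table. Of all kept probe sets, 16.3% in the 8-array table and 13.3% in the 9-array table had an unadjusted p under 0.05 for PDGF. Subunits of the nucleosome remodelling and deacetylase complex, through which NAB proteins are known to repress, gave 0 of 12 and 0 of 9, with 0 and 1 at an unadjusted p under 0.05 (limma). The Schwann cell targets of EGR2 (myelin genes such as Mbp and Pmp22) gave 0 of 3 and 0 of 4, with 0 at an unadjusted p under 0.05 in either. Of other zinc finger factors of GC-rich sites, Klf9 rose in both tables (0.63, SE 0.068, and 0.61, SE 0.107), 1 of 5 each.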

How the data were processed

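RNA of 17 arrays of NIH 3T3 cells was measured on oligonucleotide arrays of 2 designs. Deposited values are linear intensity, scaled by the authors to a common trimmed mean, as the values themselves show. Not given in the sources used here are the software that made them and its detection calls. Probe sets were named from the platform annotation, updated through Entrez IDs (20364 and 10839 symbols matched), using those with 1 gene (20393 and 10855; 691 and 396 had several, 1606 and 1237 were unlisted). The members and gene lists were chosen with earlier results of these data known.

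Within each table control probe sets (64 and 66) were removed, intensities were quantile normalised, the 20th percentile was added, log2 was taken, and the lowest 30% by mean were left out. Models used limma 3.58.1 in R 4.3.3 (lmFit, eBayes with a trend, Benjamini-Hochberg adjustment over all kept probe sets), with 3 residual degrees of freedom, or 2 for the UO126 and PD98059 difference and for 1 pair against the other 3. This residual holds differences between pairs or inhibitors that have no term of their own. Pairs share experiment and inhibitor, by design. A gene was represented by its probe set with the highest mean, and genes outside the members were named by size of PDGF change (at most 4 per list and table) or by likeness (3 per member and table). Alternatives changed the normalisation, pseudocount, filter, variance trend, pair block, probe set per gene and arrays used. The models were tested on simulated data. The PDGF fits found 85% and 83% of log2 changes of 1. The SU6656, UO126 and LY294002 fits found 53%, 57% and 63%. In that order, the fits of 1 pair against the other 3 found 1%, 10% and 2%. MEK inhibition under and without PDGF gave 39% and 38%, the interaction 15% and UO126 minus PD98059 51%. Of log2 changes of 2, every fit found at least 71%. The lack of member calls in the inhibitor and interaction fits is thus not evidence of no effect. The number of arrays limits the precision.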

Additional observations from a re-analysis of the deposited data

Results flagged for a closer look

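The PDGF effect of Egr3 in the UO126 pair of the Src experiment, 0.59 on the log2 scale, lay far from those of the other 3 pairs (1.56, 1.64 and 1.66). Pair effects of all 13 member probe sets were examined in this way, and chance alone marks about 5% of such groups. The 4 pairs differ in inhibitor and are not replicates of 1 condition.

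At the brightest probe set of a gene, other results took opposite signs in the experiments that measured them, and these differences were not tested. Egr1 with PDGF and UO126 over PDGF was −0.56 in the MEK experiment and 0.21 in the Src experiment. Nab1 had −0.40 and 0.23 in the same comparison, but its second probe set in the Src experiment, 1448781_at, had −0.37, the sign of the MEK experiment. The PDGF response of Nab1 with UO126 present was −0.05 in the MEK experiment and 0.49 in the Src experiment, where the second probe set had 0.47. Nab1 with PDGF and SU6656 over PDGF was 0.03 in the Src experiment and −0.13 in the repeat, and the second probe set had −0.18 in the Src experiment, the sign of the repeat. Nab2 with UO126 over basal was 0.35 in the MEK experiment and −0.06 in the Src experiment. The Nab1 signs under UO126 and SU6656 with PDGF over PDGF thus differed between probe sets on the same arrays. For Egr1 and Nab2, with 1 kept probe set per table, experiment, array design and probe set cannot be told apart.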

How the results depend on the processing

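Of 407 recomputed values, 377 kept their direction and side of the threshold or stayed within a set margin. Another 26 kept their direction and lost the call, 4 moved and 0 reversed. For mean responses the margin was the SD over experiments, and for counts of members called it let a fall from 7 to 5 pass. The 377 also hold counts of the inhibitor and interaction fits that were 0 and stayed 0. The total is therefore not read as a measure of how firm the PDGF calls are. The 7 member probe sets called for PDGF in the 8-array table became 4 without a variance trend, 5 without the filter, 5 with no replicate block (pair not used) and 5 without any 1 array. In the 9-array table the 3 called remained 3 in number with no replicate block and without any 1 array, and were 2 without the filter or the trend. The calls lost were those of both Nab1 probe sets (also at the 5th percentile as pseudocount for 1417624_at, adjusted p = 0.0505), Egr3 and Nab2 named above. For every inhibitor and interaction fit the count of members called was 0 under each alternative run. Since these fits missed many simulated 2-fold changes, that count is not evidence of no effect. The mean PDGF response of Egr1 was 3.04 and that of Egr2 3.40 with a pseudocount of 100 signal units, and dim probe sets depend most on this choice: the effect of Egr2 probe set 1427682_a_at ranged from 2.27 to 4.53. Replicate numbers in the labels pair no samples here.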
